A study of Homo sapiens with 36 samples.

Results

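Nuclear pore proteins (nucleoporins) and karyopherins, the carriers that move cargo through the pore, were compared between pseudopods and cell bodies of 6 human cancer cell lines. Members were chosen by gene symbol alone: NUP followed by a number, KPNA, KPNB, IPO, XPO and TNPO genes, and POM121, NDC1, TPR and RANBP2. The rule found 47 genes among the 19775 genes named by the arrays, 25 nucleoporins and 22 karyopherins, read by 142 of 41074 probe sets that carry 1 gene symbol. A probe set is the group of short probes that together read 1 transcript. The brightest probe set, by its mean over the arrays, stood for each gene, and 46 of the 47 members passed the filter on low values. IPO11 did not pass: its arrays lay between 1.6 and 25.3 intensity units in pseudopods and between 1.9 and 29.9 in cell bodies. Brighter probe sets that name IPO11 also name a neighbouring read-through transcript and were not used.

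The arrays asked how the RNA of a cell's protruding processes differs from that of the cell it extends from. Pseudopod (PS) and cell body (CB) samples of each line were collected on 3 arrays per fraction, 36 arrays in all. The lines were U87 and U251 (glioblastoma), HT1080 (fibrosarcoma), DU145 (prostate carcinoma), MDA231 (breast carcinoma) and MDA435, a line of disputed origin that was long used as a breast cancer model. The medium was DMEM for U87, U251 and HT1080 and RPMI-1640 for the remaining lines, each with serum. All cells were kept for 24 h on porous filters, after which the upper surface gave the cell bodies and the lower surface gave the pseudopods that had passed through the pores. From each sample, 100 ng of total RNA was amplified in 2 cycles before labelling. The labels do not say that the 3 arrays of a group came from separate cultures, so p-values measure the spread between these arrays, which may be technical. Because equal amounts of RNA were labelled, a transcript's share of the RNA was compared; fewer cells or cell parts that hold a transcript and less of it in each cannot be told apart.

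The nuclear pore complex is built from stacked rings of nucleoporins. Transmembrane members anchor it where the inner and outer nuclear membranes meet, outer and inner rings form its scaffold, proteins rich in phenylalanine-glycine repeats fill the central channel, and filaments reach into the cytoplasm and form a basket in the nucleus. Importins carry proteins inwards, exportins carry proteins and some RNAs outwards, and the small GTPase RAN, bound to GTP in the nucleus, tells both when to release or take up cargo.

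Median intensity was 23.0 ± 2.49 on PS arrays and 25.8 ± 2.29 on CB arrays (SD, n = 18 each). Some arrays stood apart from the others of their group. In MDA231, the cadherin CDH1 was at 1299.2 on PS array 3 and at 1777.5 on CB array 2, and at most 13.7 on the other 4 arrays. In MDA435, CDH1 was at 2072.7, 921.5 and 33.2 on the PS arrays and at 32.8, 1044.1 and 2463.0 on the CB arrays. Where leaving out such arrays changed a call, the value without them is given beside the result. Lineage markers were uneven too: the glial marker GFAP lay at or below 13.2 on all U87 arrays and between 115.4 and 229.7 in U251, and MDA435 had the neural crest genes SOX10 (883.6 to 2450.1) and S100B (1667.7 to 3325.3) with the pigment cell genes MITF (1391.5 to 2380.6) and TYR (145 to 798.7) but with PMEL and MLANA at or below 36.2.

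Averaged over the 6 lines, 17 of the 46 members tested were higher in pseudopods, 7 were lower and 22 did not pass the test. A call needs an adjusted p under 0.05 (Benjamini-Hochberg, over all 14948 genes tested) in a limma fit of log2(intensity + 16) to the 12 group means. The 17 higher members are 37.0% of those tested, against 30.3% of all genes called higher, and the 7 lower members are 15.2%, against 20.9% of all genes called lower. The members' median difference was 0.09 on that log2 scale and the median of all genes was 0.05, so as a group the members lay close to the other genes. By sign alone, 16 members were higher in all 6 lines (28.6% of all genes were) and 7 were lower in all 6 (17.3% of all genes). Nucleoporins went both ways, with 9 higher and 6 lower of 25, while karyopherins had 8 higher and 1 lower of 21 tested; this difference between the families was not tested.

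**Figure D1:**
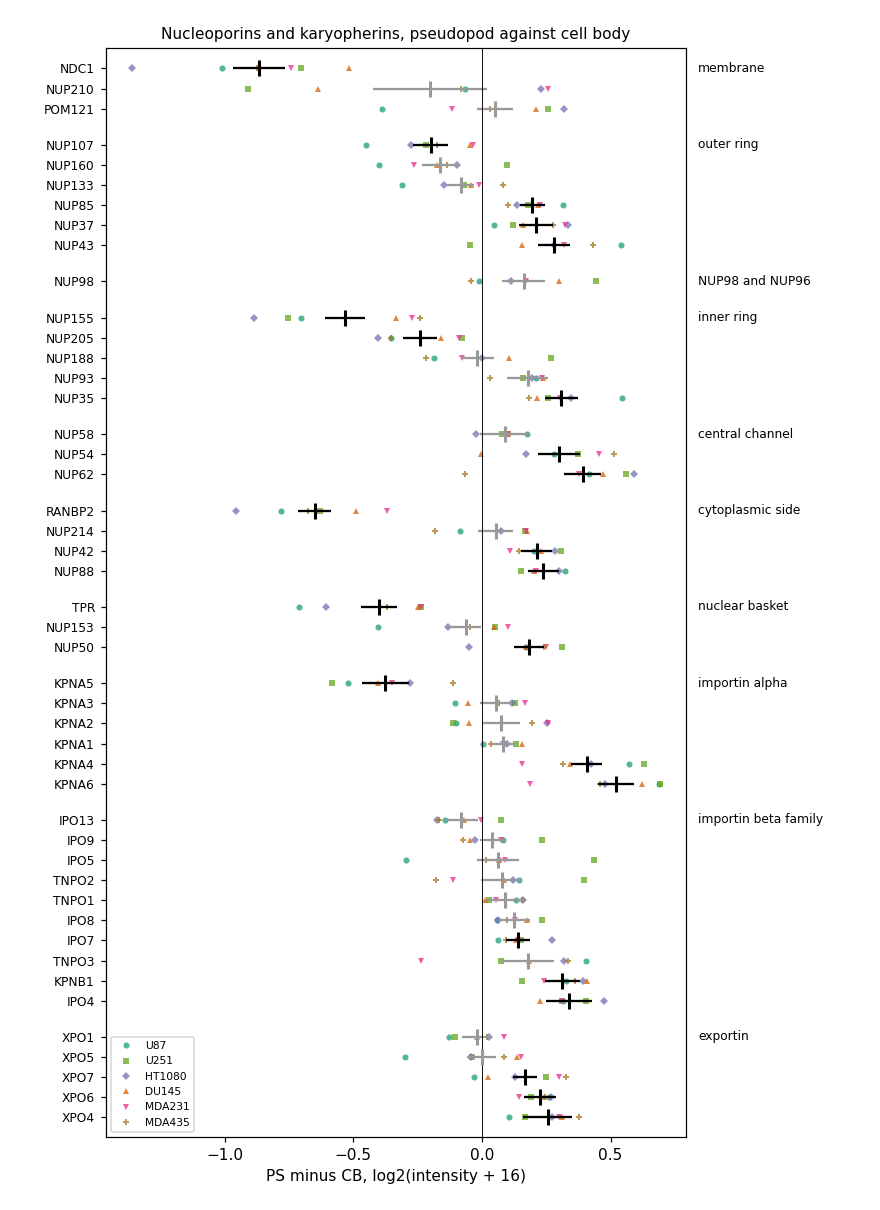
Difference between pseudopods and cell bodies on the log2(intensity + 16) scale for the 46 members tested, ordered by place in the pore or type of carrier. Vertical ticks with bars are the average over 6 lines with its standard error, black where called and grey where not, and coloured symbols are the lines. NDC1, RANBP2 and NUP155 lie farthest to the left and KPNA6 farthest to the right.

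Scaling moved these counts. With every array brought to the same median, 26 members were called higher and 5 lower, so 83.9% of the calls were higher against 70.8% with the deposited scaling, and the median of all genes was 0.15 in place of 0.05. Among all genes, 71.6% of the calls were then higher, against 59.2% with the deposited scaling. With quantile normalization 16 members were higher and 9 lower, and 64% of the members' calls and 65.0% of all genes' calls were higher.

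The nucleoporins embedded in the membrane did not move together. NDC1, which spans the nuclear membrane and helps to place new pores in it, fell most of all members. Its intensity was 396.2 at the lowest, 730.2 at the median and 1468.9 at the highest of the 18 PS arrays, and 829.2, 1493 and 2012.1 on the 18 CB arrays. The 3 PS arrays lay below the 3 CB arrays in every line but MDA231, where 1 PS array at 1434.5 was above the lowest CB array at 1423.4. In limma, the averaged log2 difference was -0.87 ± 0.10 (SE) with an adjusted p of 2.34e-08, which is 1.82-fold lower. A second, dimmer NDC1 probe set gave -1.0. NUP210, a large glycoprotein of the pore membrane, had a difference of -0.20 ± 0.22 (adjusted p = 0.475) and varied more between lines and arrays than any other member, as described below. POM121, the third membrane member, had 0.05 (adjusted p = 0.572) from a dim probe set that ranged from 8.1 to 42.7 over PS arrays and 11.6 to 35.2 over CB arrays; a brighter probe set also names the near-identical POM121C and was not used.

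Outer ring members, which form the Y-shaped scaffold units on both faces of the pore, split. NUP85, NUP37 and NUP43 rose, by 0.20, 0.21 and 0.28 on the log2 scale. NUP107 fell to 727.6, 1089 and 1439.4 (lowest, median, highest) on PS arrays, against 944.0, 1242 and 1618.7 on CB arrays. These ranges overlap widely, and the NUP107 difference of -0.20 ± 0.07 (adjusted p = 0.0135) no longer passed with arrays brought to equal medians (adjusted p = 0.192). NUP37 lost its call without the MDA231 and MDA435 arrays (0.17, adjusted p = 0.108). NUP160 and NUP133, with -0.16 (adjusted p = 0.0586) and -0.08, did not pass. The 4 arrays left out for standing apart were PS array 3 and CB array 2 of MDA231, and PS array 3 and CB array 1 of MDA435. They had the highest CDH1 of their groups in MDA231 but the lowest in MDA435, so MDA435 arrays with high CDH1 were kept. Without these 4 arrays, NUP160 was called lower (-0.18, adjusted p = 0.0266). NUP133 was called lower without all arrays of both lines (-0.14, adjusted p = 0.0401). NUP98, which is made with the ring protein NUP96 from 1 gene and is also a channel protein, had 0.16 (adjusted p = 0.108), and was called with equal medians (0.26) and with array weights (0.19), a fit that gives noisy arrays less say.

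In the inner ring, the scaffold that hugs the membrane, members moved in opposite directions. NUP155, which binds the membrane side of the ring, had 396.2, 588 and 1265.5 on PS arrays (lowest, median, highest) and 606.0, 870.3 and 1625.3 on CB arrays. PS arrays lay below CB arrays in U87, U251, HT1080 and DU145, and the fractions overlapped in MDA231 and MDA435. The averaged difference was -0.53 ± 0.08 (adjusted p = 1.46e-06). NUP35, a small linker that contacts both NDC1 and NUP155, rose, with 926.0, 1282 and 2048.1 on PS arrays and 664.3, 1059 and 1589.4 on CB arrays. The NUP35 difference was 0.31 ± 0.06 (adjusted p = 1.78e-04), and the fractions stayed apart in U87 and HT1080 but overlapped in the other lines. NUP205 was called lower, at -0.24 ± 0.07 (adjusted p = 0.00306), with 444.9, 670.0 and 1033.0 on PS arrays against 586.1, 807.9 and 1156.2 on CB arrays. The NUP205 call ended with equal medians (-0.14, adjusted p = 0.105) and the sign turned with the mean of its 2 probe sets (0.01). NUP93 (0.18, adjusted p = 0.0648) and NUP188 (-0.02) did not pass. NUP93 was called higher without the 4 arrays that stood apart (0.20, adjusted p = 0.024), and also with equal medians, array weights or lines as units. NUP188 was called lower with the mean of its probe sets (-0.12, adjusted p = 0.0301).

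The central channel proteins NUP62 and NUP54 rose, and NUP58, their partner in the channel, had 0.09 and did not pass. NUP62 had 511.1, 951.3 and 1523.7 on PS arrays (lowest, median, highest) and 298.4, 650.15 and 1073.6 on CB arrays. Its difference was 0.39 ± 0.07 (adjusted p = 3.52e-05), with PS arrays above CB arrays in every line but MDA435. A second NUP62 probe set gave 0.44. NUP54 had 0.30 ± 0.08 (adjusted p = 0.00301), but with the mean over its 3 probe sets, of which the other 2 were too dim to be tested, the sign turned (-0.06).

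On the cytoplasmic side, RANBP2 fell while NUP88 and NUP42 rose. RANBP2 makes the long cytoplasmic filaments and acts as a SUMO ligase. Its intensity was 437.9, 655.3 and 757.7 on PS arrays (lowest, median, highest) and 735.3, 956.0 and 1413.9 on CB arrays, and in all 6 lines the 3 PS arrays lay below the 3 CB arrays. The difference was -0.65 ± 0.06 (adjusted p = 1.30e-09), and all 4 RANBP2 probe sets were called lower. RANBP2 has near-identical copies (the RGPD genes), whose RNA these probes could also bind. NUP88, which holds the filament platform together with NUP214, had 0.24 ± 0.06 and NUP42, a docking site for mRNA export factors, had 0.21 ± 0.06 (adjusted p = 0.00156 and 0.00407). NUP214 itself had 0.05 and did not pass. The NUP88 call ended with the mean of its 2 probe sets (0.11, adjusted p = 0.127).

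The nuclear basket also split, with TPR lower and NUP50 higher. TPR, the coiled-coil protein that forms the basket's struts, had 241.5, 485 and 640.1 on PS arrays (lowest, median, highest) and 442.2, 613 and 874.7 on CB arrays. PS arrays were below CB arrays in all lines but MDA231, and the difference was -0.40 ± 0.07 (adjusted p = 1.91e-05). NUP50, a mobile basket protein that helps to unload importin alpha, was called higher at 0.18 ± 0.06 (adjusted p = 0.00864), and lost the call with the mean of its 6 probe sets (0.06, adjusted p = 0.423). NUP153, which ties the basket to the ring, had -0.06 and did not pass, but was called with quantile normalization (-0.14, adjusted p = 0.0192). Of the 2 NUP153 probe sets tested on their own, 1 was called higher and 0 lower.

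Of 6 importin alpha adaptors tested, which recognise the classical import signal, 2 rose and 1 fell (30.3% of all genes rose and 20.9% fell). KPNA6 had 403.2, 654.5 and 838.1 on PS arrays (lowest, median, highest) and 268.0, 441 and 689.0 on CB arrays. All 6 lines were higher, and the fractions overlapped only in DU145 and MDA231. The difference was 0.52 ± 0.07 (1.44-fold higher; adjusted p = 4.48e-07), the largest rise of any member. KPNA4 had 959.1, 1422.0 and 2128.7 on PS arrays and 752.6, 1107 and 1492.5 on CB arrays, a difference of 0.41 ± 0.06 (adjusted p = 1.50e-06). Its 3 other tested probe sets gave 0.07 to 0.15 and none was called, and with the mean of all 5 the KPNA4 call ended (0.11, adjusted p = 0.0705). KPNA5 fell, with 48.4, 143 and 190.3 on PS arrays against 55.9, 194.1 and 244.7 on CB arrays. Its difference was -0.38 ± 0.09 (adjusted p = 0.00105), and the fractions overlapped only in MDA435. KPNA1, KPNA2 and KPNA3 had 0.08, 0.07 and 0.05 and did not pass. Of the 6 KPNA1 probe sets tested on their own, 1 was called lower and 0 higher.

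In the importin beta family, whose members carry cargo through the channel themselves, 3 of 10 tested rose, beside 30.3% of all genes. By limma 0 fell, beside 20.9% of all genes. At an unadjusted p under 0.05, 0 were lower too, beside 3403 of the 14948 genes tested. KPNB1, the partner of the importin alphas, had 2613.4, 3435.3 and 4895.5 on PS arrays (lowest, median, highest) and 2091.3, 2824 and 3278.3 on CB arrays. PS arrays were above CB arrays in HT1080 and DU145, and the fractions overlapped elsewhere. The KPNB1 difference was 0.31 ± 0.07 (adjusted p = 2.52e-04). Without probe sets that may bind several transcripts it was 0.14 and not called (adjusted p = 0.112). IPO4, an importer of histones and ribosomal proteins, had 198.1, 330.05 and 618.2 on PS arrays and 151.9, 256 and 493.3 on CB arrays. Its arrays overlapped in all lines but U251 and HT1080, and the difference was 0.34 ± 0.09 (adjusted p = 0.00209). IPO7 was called at 0.14 ± 0.05 (adjusted p = 0.0116) and lost the call with quantile normalization (0.08, adjusted p = 0.158) and with the 6 line differences as the units (adjusted p = 0.0594). TNPO3, a carrier of splicing factors, had 0.18, IPO8 had 0.13 and TNPO1, TNPO2, IPO5, IPO9 and IPO13 lay between -0.08 and 0.09, with none called. IPO5 had 3 of its 5 probe sets called higher, and the gene was called with their mean (0.20, adjusted p = 0.00594), without probe sets that may bind several transcripts (0.22, adjusted p = 0.018) and with equal medians (0.16). TNPO3 was called with equal medians, the mean of its probe sets, array weights and without MDA231 and MDA435 (0.23 to 0.28). With equal medians IPO8, IPO9, TNPO1, KPNA1 and KPNA3 were called higher too (0.14 to 0.22).

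Of the 5 exportins tested, XPO4, XPO6 and XPO7 rose and none fell by limma (30.3% of all genes were higher and 20.9% lower). At an unadjusted p under 0.05, 0 exportins were lower, beside 3403 of the 14948 genes tested. XPO4 exports the translation factor eIF5A, and XPO6 exports actin bound to profilin. The differences were 0.26 ± 0.10 for XPO4, 0.23 ± 0.06 for XPO6 and 0.17 ± 0.05 for XPO7 (adjusted p = 0.0267, 0.00376 and 0.00418). Without MDA231 and MDA435, XPO4 and XPO7 were not called (adjusted p = 0.107 and 0.236), and XPO7 also lost its call with the mean of its 3 probe sets. XPO4 was not called without U87 CB array 3 (adjusted p = 0.052) or DU145 CB array 3 (adjusted p = 0.0523). XPO5, which exports microRNA precursors, had a difference within 0.01 of 0. XPO1, the main exporter of proteins with a leucine-rich signal, had 2857.0, 3406 and 4553.0 on PS arrays (lowest, median, highest) and 2541.9, 3637 and 4744.6 on CB arrays. The fractions covered nearly the same range (-0.02 ± 0.06, adjusted p = 0.794), although quantile normalization gave -0.14 (adjusted p = 7.93e-04). With the mean of its 3 probe sets XPO1 was called lower, at -0.42 (adjusted p = 1.83e-08), since both dimmer probe sets were lower.

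**Figure D2:**
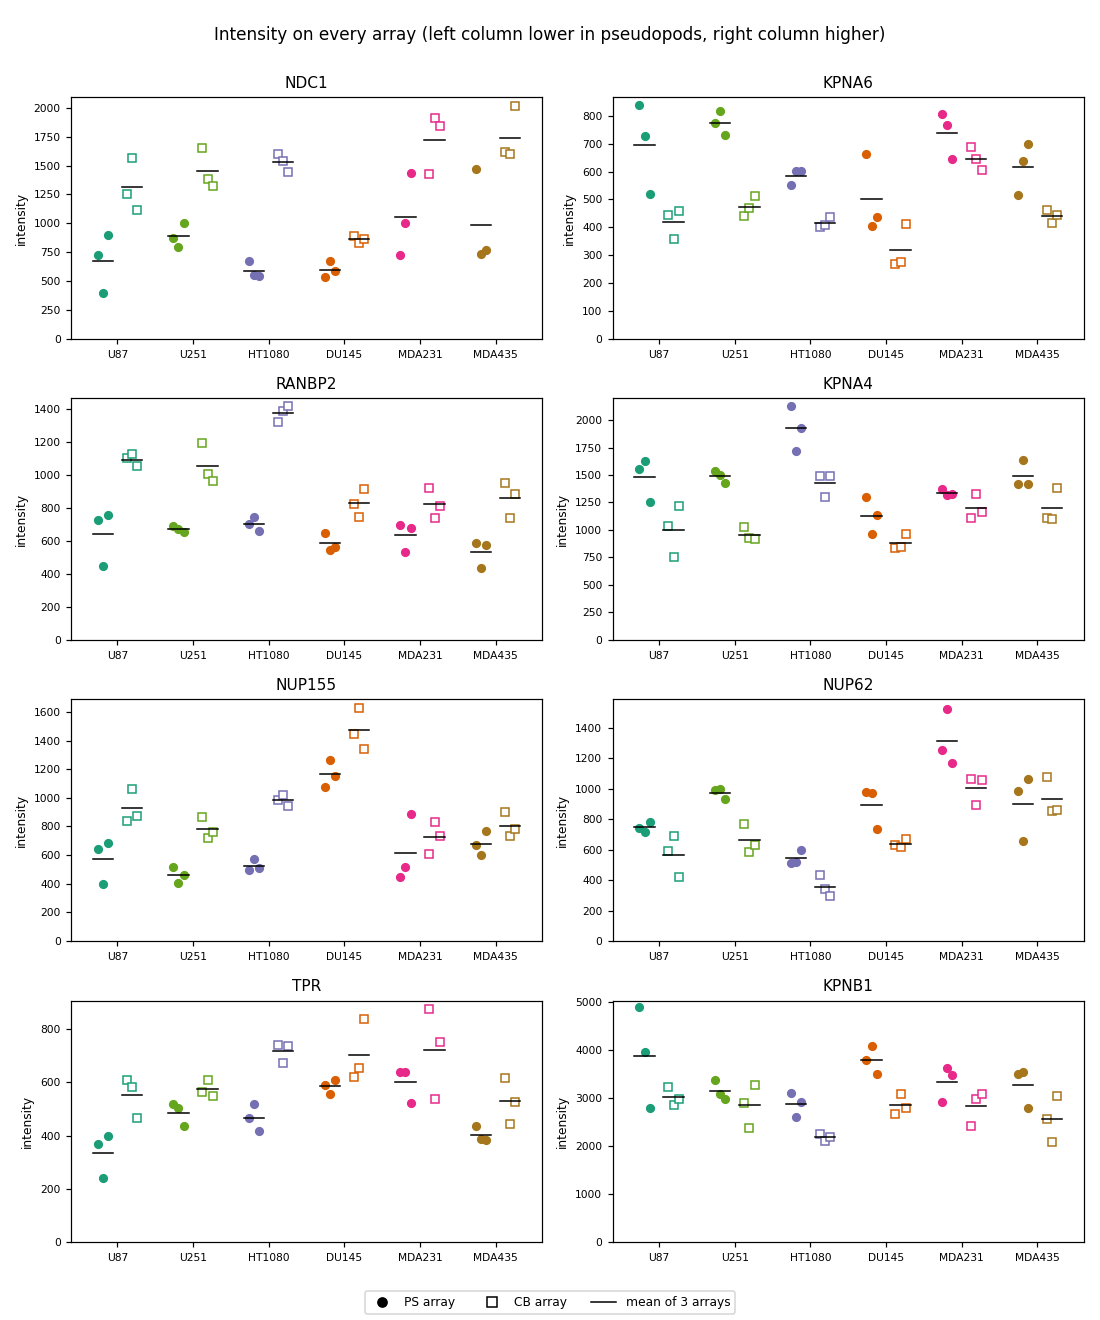
Intensity on each of the 36 arrays for 4 members lower in pseudopods (left column) and 4 higher (right column), with filled circles for PS arrays, open squares for CB arrays and bars for the mean of 3 arrays. RANBP2 has all its PS points below its CB points in every line, while the KPNB1 points overlap in U87, U251, MDA231 and MDA435.

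Within single lines, each member was tested in the same fit. That fit gave each gene 1 spread over all groups, but the groups were not equally noisy. The members' SD within groups was 0.12 in U251 PS and HT1080 CB, 0.27 in U87 PS and 0.31 in MDA435 PS (log2 scale). P-values can thus be too small in noisy lines and too large in quiet ones, and call counts are not strictly comparable between lines. In U87, 4 members rose (12.2% of all genes were called higher) and 6 fell (12.1% of all genes lower). NDC1 had 724.9, 396.2 and 897.2 on the U87 PS arrays and 1255.7, 1564.2 and 1115.4 on the CB arrays, a difference of -1.01 ± 0.24 (adjusted p = 0.00273). KPNA6 had 838.1, 727.5 and 518.5 on PS arrays and 442.7, 358.8 and 457.2 on CB arrays (0.69 ± 0.17, adjusted p = 0.00397). Both genes had separate fractions, which was part of how they were chosen. Among all 14948 genes tested, 2599 had separate fractions in U87 with PS higher and 2165 with PS lower. RANBP2, NUP155, TPR, NUP107 and NUP153 were the other members lower in U87, and KPNA4, NUP43 and NUP35 the other members higher. Without U87 PS array 2, which held the lowest NDC1, RANBP2, NUP155 and TPR values of that group, only 1 member was called lower, and without PS array 3 the higher count was 8. With the mean of a gene's probe sets, KPNA4 (0.12, adjusted p = 0.586), NUP43, NUP153 and TPR lost their calls in U87, and NUP107 and NUP153 did so with equal medians.

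In U251, 3 members rose (5.56% of all genes were higher) and 2 fell (9.63% lower). NUP155 had 515.2, 402.4 and 459.7 on PS arrays and 866.2, 721.0 and 764.6 on CB arrays (-0.75 ± 0.19, adjusted p = 0.00656). KPNA6 had 774.9, 817.9 and 731.7 on PS arrays and 439.0, 470.4 and 512.3 on CB arrays (0.69, adjusted p = 0.0062). Neither gene overlapped between the fractions, which was part of how they were chosen. Among all 14948 genes tested, 3352 had separate fractions in U251 with PS higher and 2559 with PS lower. RANBP2 was the other member lower, and NUP62 and KPNA4 the others higher. The NUP62 call in U251 ended in turn without each PS array and without CB arrays 2 and 3 (adjusted p = 0.0542 to 0.118), and the count of lower members was 4 without MDA435 PS array 1 or 3. The RANBP2 call in U251 ended with the mean of its probe sets (-0.34, adjusted p = 0.12) and without probe sets that may bind several transcripts (-0.25, adjusted p = 0.428).

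HT1080 had 3 members higher (13.4% of all genes) and 4 lower (12.4%). NDC1 had 671.4, 548.5 and 543.1 on PS arrays and 1596.9, 1537.2 and 1448.9 on CB arrays, a difference of -1.36 ± 0.24 (adjusted p = 1.03e-04) and the largest of any member in any line. NUP62 had 511.1, 515.8 and 600.3 on PS arrays and 430.3, 342.8 and 298.4 on CB arrays (0.59, adjusted p = 0.0119). The fractions of both genes were separate, which was part of how they were chosen. Among all 14948 genes tested, 4515 had separate fractions in HT1080 with PS higher and 2772 with PS lower. RANBP2 (-0.95, adjusted p = 3.32e-05), NUP155 and TPR also fell and KPNA4 and KPNA6 rose. Without HT1080 PS array 3 the count of higher members was 0 (0.46 and adjusted p = 0.108 for KPNA6, 0.52 and 0.0626 for NUP62, 0.42 and 0.0773 for KPNA4), and without PS array 1 or CB array 2 or 3 it was 1. With the mean of a gene's probe sets, KPNA4 (0.05, adjusted p = 0.843), KPNA6 (0.27, adjusted p = 0.109) and TPR (-0.61, adjusted p = 0.115) were not called in HT1080. Without the MDA231 and MDA435 arrays in the fit, KPNA6 was not called in HT1080 either (0.48, adjusted p = 0.0529).

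The other lines gave few calls. In DU145, 1 member rose (0.856% of all genes were higher) and 0 fell by limma (2.22% lower). At an unadjusted p under 0.05, 4 members were higher and 2 lower, beside 1349 and 1407 of the 14948 genes tested. The called member was KPNA6, at 662.5, 403.2 and 437.0 on PS arrays and 268.0, 273.9 and 413.3 on CB arrays. The fractions overlapped, and the difference of 0.62 (adjusted p = 0.0465) was lost in 24 of the 36 fits that left out 1 array. In MDA231, 0 members were called in either direction by limma (1.22% of all genes were higher and 4.97% lower). Of the members, 4 were higher and 2 lower there at an unadjusted p under 0.05, beside 1313 and 1912 of all genes tested. With array weights MDA231 had 3 higher and 3 lower, and 12.7% of all genes were then higher and 15.1% lower.

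In MDA435, 0 members rose (3.1% of all genes were higher) and 2 fell (9.06% lower). At an unadjusted p under 0.05, 6 members were higher, beside 1643 of the 14948 genes tested. RANBP2 had 584.1, 437.9 and 576.1 on PS arrays and 952.7, 735.3 and 885.5 on CB arrays (-0.67, adjusted p = 0.00362). NDC1 had 1468.9, 732.5 and 768.4 on PS arrays and 1615.7, 1601.7 and 2012.1 on CB arrays (-0.87, adjusted p = 0.016). The fractions of both genes were separate, which for NDC1 was part of how it was chosen. Among all 14948 genes tested, 1861 had separate fractions in MDA435 with PS lower. The NDC1 call ended without the 4 arrays that stood apart (adjusted p = 0.0832), and without MDA435 PS array 2 (0.129), PS array 3 (0.0807) or CB array 3 (0.0745). With array weights, 11 members were called higher in MDA435, as were 18.3% of all genes.

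Whether the PS minus CB difference of a member varied between the 6 lines was tested with a moderated F test. After adjustment, 0 of 46 members passed (1.2% of all genes did). At an unadjusted p under 0.05, 0 members passed, beside 1485 of the 14948 genes tested. POM121 (F = 2.42, adjusted p = 0.541), NUP155 (0.623), NUP62 (0.730) and NUP43 (0.734) had the largest F values. POM121 was dim in all lines, with 8.1, 11.3 and 13.7 on U87 PS arrays and 16.5, 22.3 and 19.2 on U87 CB arrays, a log2 difference of -0.39 beside 0.32 in HT1080. NUP155 differences ran from -0.89 in HT1080 to -0.24 in MDA435, where the PS arrays (669.8, 602.5 and 767.5) overlapped the CB arrays (899.5, 733.0 and 781.9). NUP62 had -0.07 in MDA435, with 981.6, 657.6 and 1060.6 on PS arrays and 1073.6, 854.6 and 857.6 on CB arrays. Its other 5 lines lay between 0.38 and 0.59. NUP43 had 0.54 in U87 (896.8, 898.8 and 756.7 on PS arrays, 605.6, 486.9 and 652.6 on CB arrays) and -0.05 in U251 (712.7, 811.1 and 712.0 on PS arrays, 768.7, 684.3 and 861.8 on CB arrays). With array weights NUP62 and NUP155 passed (adjusted p = 0.0217 and 0.0388), and so did 16.7% of all genes.

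Levels in the cell bodies alone differed between lines for 40 of the 46 members, beside 81.9% of all genes (limma F test). KPNB1, NUP107, NUP37, NUP153, NUP54 and POM121 did not pass. The ratio of the highest to the lowest line mean was 2.81 for NUP62, 2.66 for NUP98 and 2.66 for NUP188. NUP62 CB levels averaged 1005 ± 97.0 in MDA231, 928.6 ± 126 in MDA435, 660.1 ± 95.5 in U251, 637 ± 27.9 in DU145, 566 ± 133 in U87 and 357 ± 67.1 in HT1080 (SD, n = 3). The order between MDA231 and MDA435, and among U251, DU145 and U87, is within these spreads.

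NUP210 stood apart from all other members in this respect. Its CB means ran from 6.10 ± 1.04 in HT1080 and 9.23 ± 2.82 in U87, both below the filter of 24.4, over 36.8 ± 47.1 in MDA435 and 48.3 ± 51.9 in MDA231 to 189 ± 12.7 in U251 and 249 ± 28.6 in DU145 (SD, n = 3; adjusted p = 5.37e-07). In MDA231 the PS arrays read 16.4, 35 and 125.3 and the CB arrays 29.3, 107.1 and 8.6. MDA435 PS arrays read 90.9, 11.4 and 4.0 and CB arrays 6.0, 13.5 and 91.0. The high arrays in these lines, 1 in each fraction, were those with the highest CDH1 of their group. MDA435 PS array 2 and CB array 2 also had high CDH1 (921.5 and 1044.1), but NUP210 of 11.4 and 13.5. U251 had CDH1 at or below 6.1 on every array, with NUP210 of 84.0 to 198.4. The part of these array differences in the NUP210 result was not tested. In U251 the PS arrays (96.1, 84.0 and 99.6) lay below the CB arrays (198.4, 174.5 and 193.8), a log2 difference of -0.91. DU145 PS arrays (186.7, 145.2 and 133.9) also lay below the CB arrays (257.5, 217.6 and 273.1), a difference of -0.64. Neither passed within its line at an adjusted p under 0.05. Over the 4 lines other than MDA231 and MDA435, NUP210 was called lower, at -0.35 (adjusted p = 0.00412).

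**Figure D3:**
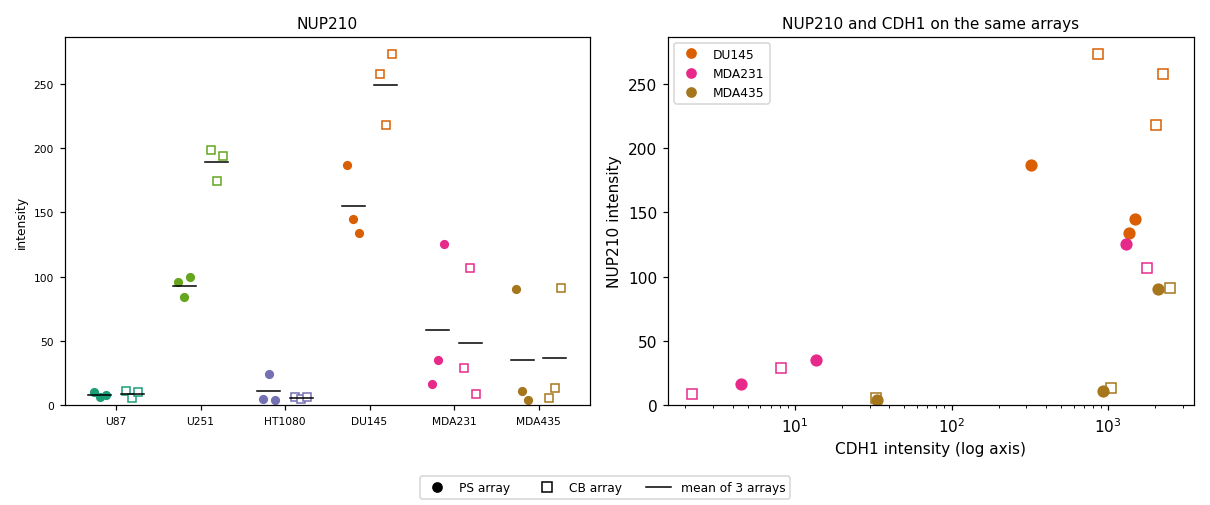
NUP210 intensity on each array of the 6 lines (left, PS filled and CB open, bars for means of 3 arrays), and NUP210 against CDH1 intensity on the DU145, MDA231 and MDA435 arrays (right, CDH1 on a log axis). The 4 MDA231 and MDA435 arrays with NUP210 above 90 have CDH1 between 1299.2 and 2463.0.

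Other probe sets of the members carry the same gene symbol. The annotation used here does not say where they bind or whether they read the same transcript. Of the 142 probe sets, 126 could be tested, and 39 were higher (28.1% of all single probe sets were) and 19 lower (22.8%). For 2 genes, NUP50 and NUP58, probe sets were called in both directions. The NUP50 probe set called lower was dim, with medians of 17.35 on PS arrays and 21.2 on CB arrays (-0.19). The dimmest NUP58 probe set had 11.4, 26.25 and 43.3 on PS arrays (lowest, median, highest) and 4.7, 77.45 and 113.1 on CB arrays. Its averaged difference was -0.98 ± 0.11 (adjusted p = 6.70e-09), lower in all 6 lines, whereas 2 others gave 0.46 and 0.26 and were called higher, and the brightest gave 0.09. The XPO1 probe sets differed in size, with 2 of 3 called lower and 0 higher. Its second brightest had 36.1, 71.95 and 105.9 on PS arrays and 63.5, 163.3 and 283.4 on CB arrays. It was lower in all 6 lines (-1.02 ± 0.10, adjusted p = 4.40e-10), while the brightest XPO1 probe set gave -0.02. NUP160 had 2 dim probe sets called higher (0.30 and 0.35) beside -0.16 at the brightest, and with the mean of its probe sets the gene was called higher (0.16, adjusted p = 0.016).

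**Figure D4:**
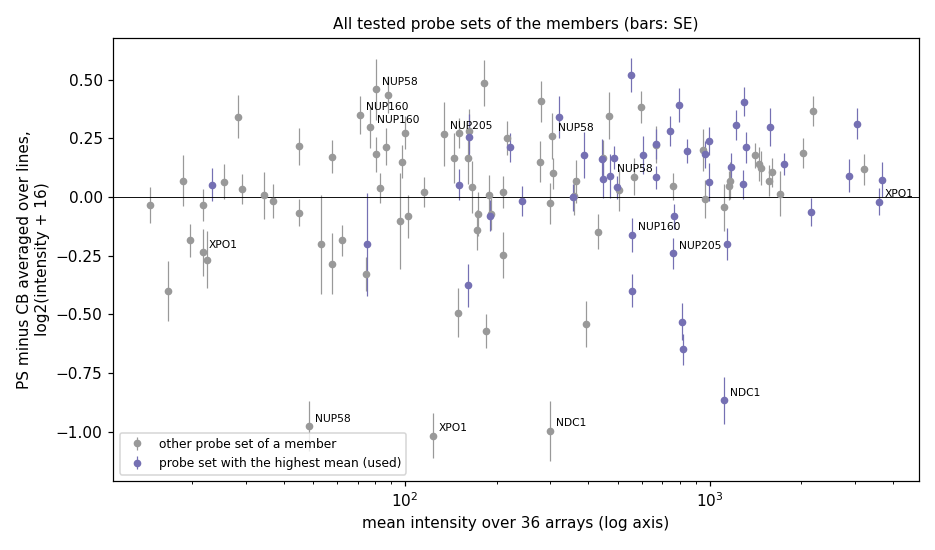
Averaged PS minus CB difference (log2, bars are SE) against mean intensity on a log axis for the 126 tested probe sets of the members, with the probe set used for a gene in purple and its other probe sets in grey. The grey points of NUP58 (-0.98) and XPO1 (-1.02) lie far below the purple points of the same genes, and both NDC1 points lie near each other.

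Genes that work with the pore but lie outside the symbol rule were read from a fixed list. Of its 33 tested genes, 13 rose and 8 fell (39.4% and 24.2%, beside 30.3% and 20.9% of all genes), with a median of 0.11 against 0.05 for all genes. Without probe sets that may bind several transcripts, 10 of the 13 had none left to test, RANGRF, RANBP1, RCC1, PHAX, SEC13 and LMNB2 among them, and the other 3 (RAN, RANGAP1 and NXT1) were called higher. Of the RAN cycle, 5 of 6 genes rose. RANGRF, which binds RAN, rose by 0.68 ± 0.06 and had 155.5, 338.6 and 769.4 on PS arrays (lowest, median, highest) and 125.2, 190.5 and 507.4 on CB arrays. RANBP1, which helps to strip RAN from carriers, rose by 0.58 ± 0.11, RCC1, the nucleotide exchange factor of RAN, by 0.39 ± 0.10, and RANGAP1, its GTPase activator, by 0.34 ± 0.08. RAN itself was called at 0.21 ± 0.07 (adjusted p = 0.0102), but not with quantile normalization (0.09, adjusted p = 0.098) or without MDA231 and MDA435 (adjusted p = 0.0601). Further carriers and adaptors had 4 of 6 higher: PHAX, the export adaptor of spliceosomal RNAs, with 0.70 ± 0.06, NXT1, a cofactor of mRNA export, with 0.46 ± 0.07, SNUPN with 0.29 ± 0.08 and NMD3, the export adaptor of the large ribosomal subunit, with 0.18 ± 0.05. NMD3 was not called with quantile normalization (adjusted p = 0.162). CSE1L, which returns importin alpha to the cytoplasm, and XPOT, the exporter of transfer RNA, had 0.05 and 0.11 and did not pass.

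Of 8 further pore proteins tested, SEC13 (0.40 ± 0.07) and SEH1L (0.38 ± 0.07), both outer ring subunits, and DDX19A (0.36 ± 0.06), a helicase of mRNA export with the near-identical copy DDX19B, rose. AHCTF1, which starts pore assembly on chromatin, fell by 0.28 on the log2 scale (SE 0.06; adjusted p = 1.09e-04). The 13 lamina and nuclear membrane genes had 7 lower and 1 higher, beside 20.9% and 30.3% of all genes, with a median of -0.43. SUN2, a membrane protein that links the lamina to the cytoskeleton, had 40.7, 136.0 and 345.5 on PS arrays (lowest, median, highest) and 124.5, 458.2 and 1389.5 on CB arrays, a difference of -1.58 ± 0.15 (adjusted p = 3.48e-10). LBR, the membrane receptor of lamin B, had 182.4, 719.9 and 1444.8 on PS arrays and 1080.3, 1851.8 and 2322.6 on CB arrays (-1.36 ± 0.13, adjusted p = 4.10e-10). LEMD3 (-1.22 ± 0.11) and TOR1A (-1.14 ± 0.08) completed the 4 largest falls. The other 3 that fell were SUN1, TOR1AIP1 and SYNE2. The SYNE2 call (-0.43) ended without probe sets that may bind several transcripts (-0.13, adjusted p = 0.124). The only gene of this list that rose was LMNB2 (0.45 ± 0.10), a lamin. The lamins LMNA and LMNB1 (0.15 and -0.08), the membrane proteins EMD (0.09) and SYNE1 (-0.32, adjusted p = 0.0646), and TMPO (0.10), some of whose forms span the membrane, did not pass. The NDC1 difference of -0.87 lies between those of TOR1AIP1 (-0.84 ± 0.07) and SUN1 (-1.11 ± 0.10), both proteins of the inner nuclear membrane.

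**Figure D5:**
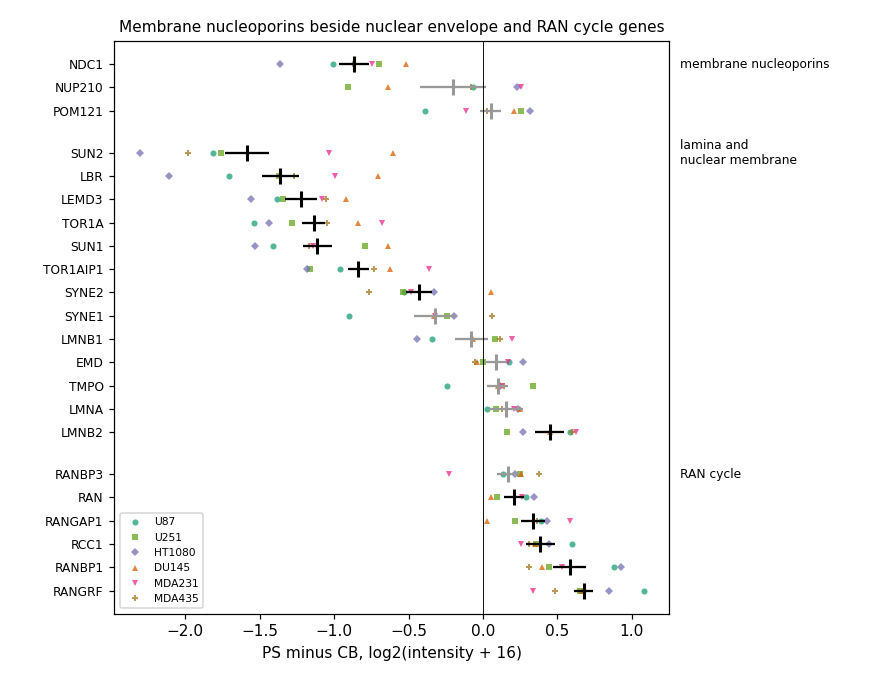
PS minus CB difference on the log2(intensity + 16) scale for the membrane nucleoporins, the lamina and nuclear membrane genes and the RAN cycle genes, with ticks and bars for the average of 6 lines and its standard error (black where called) and coloured symbols for lines. NDC1 and the 7 called nuclear membrane genes lie left of 0, and LMNB2 and the RAN cycle genes lie right of it.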

How the data were processed

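Values were read from 36 Affymetrix HG-U133 Plus 2.0 arrays. The deposited values are linear intensity, between 0 and 9883.2 over 54593 probe sets; RMA and Partek appear, with neither a step nor a version, in the submitters' processing notes, and which program wrote the linear values was not recorded there. Arrays carry no counts, so precision is limited by their number. Log2(intensity + 16) was computed from the deposited intensities, which understates changes of dim genes. Gene names came from the platform annotation, with 41020 of 41074 single symbols updated through RefSeq; 1798 probe sets with several symbols and 11721 with none were not named. The probe set with the highest mean stood for each of 19775 genes. A gene was tested where its highest line mean over both fractions reached 24.4, the median of all values (14948 genes). Tests used limma 3.58.1 in R 4.3.3 (12 group means, 24 residual degrees of freedom) with Benjamini-Hochberg adjustment over all genes tested; contrasts were PS minus CB per line and their equal-weight average. Folds are on the log2(intensity + 16) scale.

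The symbol rule, role lists and list of other genes were fixed with earlier results of these data known. Array values are given for the 6 called members with the largest rise and fall, the 4 with the largest F, and per line the called member with the largest rise and fall whose arrays do not overlap; array values of other members were chosen after their values were seen. Equal replicate numbers did not pair the samples: 4 of 18 same-numbered pairs correlated above 0.1 (range -0.79 to 0.70). On simulated data with 200 of 14948 genes changed, the averaged contrast recovered 42.5% of 1.25-fold, 88.5% of 1.5-fold and 98.5% of 2-fold changes, and U87 alone 0%, 17.5% and 72%. The real data had far more genes called (30.3% higher and 20.9% lower averaged, 12.2% and 12.1% in U87). The adjusted p depends on that share. A gene's simulated spread was taken over all groups, whereas the real SD within groups differed (0.37 in U87 PS, 0.22 in U251 PS, all genes). The recovered percentages therefore need not hold for the real tests. Alternatives covered the pseudocount, filter, scaling, probe set choice, array weights, a replicate block, lines as units and arrays left out. Figures were drawn in Python 3.11.15 with matplotlib 3.10.9.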

Additional observations from a re-analysis of the deposited data

How the results depend on the processing

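The averaged counts of 17 higher and 7 lower members were 16 to 19 and 7 to 8 in the 36 fits that left out 1 array, 16 and 7 with the 6 line differences as units, and 17 and 7 with line and replicate number as a block. Equal array medians gave 26 higher. Without probe sets that may bind several transcripts, 3 of the other nuclear transport genes were higher in place of 13, since 10 of the 13 had none left to test. Leaving out 1 array gave 13 to 15 higher and 8 to 9 lower other genes, and 38 to 42 members differing between lines in CB level.
Counts within lines moved more, and the cause was not tested. U87 had 3 lower members without such probe sets, and 3 to 8 higher and 1 to 7 lower with 1 array left out. U251 lower members numbered 4 with a pseudocount of 64 or without the 4 MDA arrays that stood apart, 0 without probe sets that may bind several transcripts, and 5 without MDA231 and MDA435; array weights gave 8 higher and 5 lower, and leaving out 1 array 2 to 3 and 2 to 4. HT1080 had 12 higher with array weights, 1 higher with the replicate block, 1 lower without those probe sets, and 0 to 4 and 3 to 5 with 1 array left out. DU145 had 0 higher with a pseudocount of 4, equal medians, no filter, the mean of probe sets or the replicate block and 2 with quantile normalization, 1 lower with a pseudocount of 64, quantile normalization or 4 lines, and 4 and 4 with array weights; with 1 array left out each count was 0 to 1. MDA231 had 2 higher with equal medians, 1 lower with quantile normalization, without those probe sets or without the 4 arrays, 2 lower with the mean of probe sets, 3 and 3 with array weights, and 0 and 0 to 1 with 1 array left out. MDA435 had 2 higher with a pseudocount of 64, equal medians or the filter at 97.6, 1 with quantile normalization and 11 with array weights, 1 lower without those probe sets or without the 4 arrays, and 0 to 2 and 1 to 2 with 1 array left out. With array weights, 15.2% of all genes were called higher and 14.3% lower in U251, and 24.5% were called higher in HT1080. In DU145 these shares were 11% higher and 11.6% lower, in MDA231 12.7% and 15.1%, and in MDA435 18.3% were higher. The F test between lines called 2 members with array weights (16.7% of all genes) and 0 with any 1 array left out.
Signs turned for small differences. Equal medians gave 0.017 for IPO13, 0.0143 for NUP133, 0.0336 for NUP153, 0.0796 for NUP188, 0.0773 for XPO1 and 0.0961 for XPO5. Quantile normalization gave -0.0316 for KPNA2, 0.0247 for NUP188, -0.0244 for TNPO1 and 0.0254 for XPO5. The mean of probe sets gave -0.0535 for KPNA1, 0.162 for NUP160, 0.0143 for NUP205, -0.0612 for NUP54, -0.0419 for NUP58, -0.018 for TNPO2 and 0.0095 for XPO5. NUP214 had -0.0667 without probe sets that may bind several transcripts. XPO5 had 0.0028 with a pseudocount of 64, 0.0463 with array weights and 0.0144 without the 4 arrays. NUP188 had 0.0118 with array weights and 0.0467 without MDA231 and MDA435, where KPNA2 had -0.0019. With 1 array left out, NUP188 ran from -0.0378 to 0.0126, XPO1 from -0.0403 to 0.0015 and XPO5 from -0.0229 to 0.026. With the replicate block, which no pairing of the samples supports, KPNA6 in DU145 and HT1080, KPNA4 in HT1080, NUP62 in U251, and NUP107 and NUP153 in U87 lost their calls (adjusted p = 0.0679 to 0.134), and no other called member did. The averaged calls of RANBP2, TPR, KPNA5, KPNA6, IPO4, NUP35, NUP43 and NUP85 held under each alternative and each left-out array. Those of NDC1, NUP155, NUP62, NUP42 and XPO6 held in every fit that tested them. None of these was tested without probe sets that may bind several transcripts, where NDC1 and NUP155 have no probe set left. Dim probe sets such as that of POM121 limit what can be read, since no background flags were used.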
